A study of Sus scrofa with 16 samples.

Results

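Enteroendocrine cells of the pig duodenum and jejunum were taken as cells with at least 3 UMIs of CHGA and 0 UMIs of PTPRC. A UMI is a molecular tag that stands for 1 captured RNA molecule. CHGA encodes chromogranin A, a protein of hormone granules, and PTPRC encodes the leukocyte surface protein CD45. The choice therefore rests on measured values of these genes, and CHGA levels are given below as a description of the cells. A barcode had to reach 1000 UMIs and 500 genes, with the 13 mitochondrial genes taking no more than 25% of its UMIs, to be kept as a cell. The gate held 37 of 718 kept cells of the duodenum (5.15%) and 19 of 986 of the jejunum (1.93%). These 56 cells came from 1704 kept cells of both regions, and from 7182 in the 4 regions of the series.

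The study profiled small intestine of mixed-breed female pigs aged 7.5 weeks with droplet sequencing of the 3' ends of transcripts. The duodenal library (DUOD) came from the gut directly after the pylorus, and the jejunal library (JEJ) from farther down. The other libraries came from ileum with Peyer's patches (IPP) or without them (NoPP). Epithelium was released with EDTA, and live cells were enriched on a density gradient, with no sort for a cell type and no treatment named. The labels list 4 titles per region, but each region was deposited as 1 matrix and no cell could be assigned to a title. A region is therefore 1 sample of pooled titles. No difference between regions or cell groups could be tested, so no p-value is given. Intervals below are exact 95% intervals for shares (Clopper-Pearson) or for ratios of Poisson counts, and they cover counting error only. For a hormone with no positive cell, the largest share allowed is taken as 3 cells over all cells gated.

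Enteroendocrine cells are scattered secretory cells of the gut epithelium that sense the luminal contents and release peptide hormones or serotonin. Peptide prohormones are packed into granules with granins and are cut by the convertases PCSK1 and PCSK2, then trimmed by CPE and amidated by PAM. The upper small intestine is known for ghrelin, motilin, GIP, cholecystokinin, secretin and somatostatin cells, while neurotensin, glucagon-like peptides and PYY are known from cells farther down. Their transcription factors include NEUROD1, PAX6, ISL1 and RFX6, which shape which hormones a cell makes.

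The gated cells of DUOD had 5914 to 54947 UMIs (median 17814) and those of JEJ 1534 to 28169 (median 12541). CHGA ranged from 3 to 344 UMIs in DUOD (median 17) and from 3 to 489 in JEJ (median 78). Just inside the gate, 3 DUOD and 2 JEJ cells had 3 CHGA UMIs. Just outside it, with no PTPRC UMI, 2 DUOD and 1 JEJ cells had 2 CHGA UMIs. A further 5 DUOD cells and 1 JEJ cell with at least 3 CHGA UMIs were left out for a PTPRC UMI. Of the 37 gated DUOD barcodes, 25 also had at least 500 UMIs in NoPP, always with far more in DUOD (9.79 to 28.0 times as many), and 1 passed the gate in both libraries. NoPP values are therefore no independent check on DUOD. No gated JEJ barcode was shared in this way.

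The label held against the marker genes. In DUOD, EPCAM and KRT8, genes of epithelial cells, had UMIs in 37 of 37 cells, and in JEJ each had UMIs in 18 of 19. The hormone granule genes SCG3 (36 of 37 and 18 of 19 cells) and CPE (37 of 37 and 19 of 19) and the transcription factor NEUROD1 (32 of 37 and 17 of 19) were widely detected. Of the fixed hormone markers, SST, CCK, GHRL and MLN each passed 1% of UMIs in each region, in 1 cell for MLN in JEJ and in 4 or more cells otherwise. CD3E and CD79A were at 0 in all 56 cells, as were all 6 tuft cell genes and all 9 stromal genes measured. Of 6 goblet cell genes 4 had UMIs in each region, with MUC2 and CLCA1 at 0, and they summed to 1592 CPM in DUOD and 931 in JEJ, against 2572 and 17718 in other epithelial cells. TFF3, a trefoil peptide of goblet cells, had UMIs in 17 of 37 and 11 of 19 cells, and its part in the results was not tested. The T cell list had UMIs for 4 of 9 genes in DUOD and 3 of 9 in JEJ, and summed to 23.8 and 63.6 CPM (UMIs scaled to a common total), against 20698 and 32560 in immune cells. The enterocyte list (12 of 13 genes detected in each region) summed to 5787 CPM in DUOD and 4444 in JEJ, against 50761 and 69022 in other epithelial cells. Its share per cell ran from 0.0416 to 3.60% in DUOD and from 0.0611 to 1.11% in JEJ, and leaving out the cells above 1% in 6 enterocyte genes moved a count by over 1.5 times, or a ratio below 2-fold, only for GIP cells and GIP itself among the results recomputed. NEUROG3, the factor that starts the endocrine fate, was at 0 in both regions.

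Peptide hormones filled much of the RNA of these cells. The 12 peptide hormone genes measured took 44.3% of all UMIs of the gated DUOD cells and 19.4% of those in JEJ, and SST alone took 22.7% of the DUOD UMIs. A cell is called positive for a hormone below when it has at least 3 of its UMIs and these are at least 0.1% of the UMIs of the cell. The 3' assay counts molecules, so UMIs of different hormones do not scale with transcript length. By this rule SCT, which encodes secretin, was positive in 12 of 37 DUOD cells (32.4%; 18.0 to 49.8%), the most of any hormone there. In 5 of them, led by GHRL, CCK or SST, SCT had 20 to 40 UMIs, and at 1% of UMIs it was found in 7 cells, against 10 for SST.

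SST, the inhibitory hormone somatostatin, was positive in 10 DUOD cells (27.0%; 13.8 to 44.1%) and in 4 JEJ cells (21.1%; 6.05 to 45.6%). CCK, cholecystokinin, which releases bile and pancreatic enzymes, was positive in 9 and 4 cells (24.3 and 21.1%). GHRL, the appetite hormone ghrelin, was positive in 8 and 5 cells (21.6 and 26.3%). MLN, motilin, which drives the fasting contractions of the gut, was positive in 8 and 2 cells (21.6 and 10.5%). For these hormones the intervals of the regions overlapped.

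GIP, an incretin that raises insulin release, was positive in 6 DUOD and 3 JEJ cells (16.2 and 15.8%). SCT was positive in 5 JEJ cells (26.3%). GAST, the acid-stimulating hormone gastrin, was positive in 5 DUOD cells (13.5%) and in 0 of 19 JEJ cells, which allows a share of up to 15.8%. Conversely, NTS, neurotensin, was positive in 3 JEJ cells (15.8%) and in 0 of 37 DUOD cells, which allows up to 8.11%. PYY was positive in 2 DUOD cells and 1 JEJ cell, GCG in 1 JEJ cell, and PPY and INSL5 in none of the 56.

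**Figure D1:**
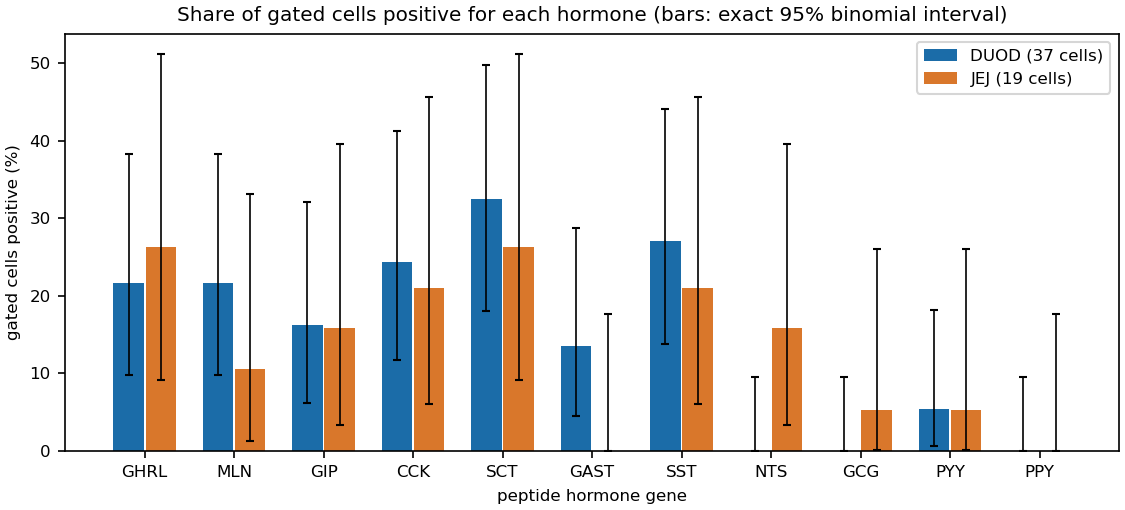
Share of gated cells positive for each peptide hormone gene (y axis, percent of cells) in DUOD (blue, 37 cells) and JEJ (orange, 19 cells), with exact 95% binomial intervals. SCT stands highest in DUOD at 32.4% (27.0% for SST), NTS has a bar in JEJ alone and GAST in DUOD alone, and the intervals of the regions overlap for each hormone.

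Single UMIs of hormones were common and are read as background where immune cells had them too. SST had a UMI in 26 of 37 gated DUOD cells (70.3%), but also in 25.2% of 405 immune cells, taken as cells with a PTPRC UMI and no CHGA, whose median depth was 3089 UMIs against 17814. The 27 DUOD cells not positive for SST held at most 3 SST UMIs each. SCT was different: 78.4% of the gated DUOD cells and 0.247% of the immune cells had a UMI, and in JEJ 63.2% and 0.636% (median depths 12541 and 3760). With each cell thinned to 1000 UMIs, the shares with a UMI in DUOD were 35.1% for SST and 40.5% for SCT.

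Most cells had a hormone at 1% or more of their UMIs, and many were positive for more than 1 hormone. Of the 56 cells, 44 had a hormone at 1% or more of their UMIs, and in those the leading hormone held a median of 97.6% of the hormone UMIs (lowest 51.4%). It held at least 90% in 26 cells and at least 99% in 18. In DUOD 0, 1, 2, 3 and 4 hormones were positive in 4, 16, 8, 8 and 1 cells. In JEJ the same numbers were found in 5, 5, 5, 3 and 1 cells. The leading hormone held a median of 98.8% in the 33 led cells of DUOD and 69.0% in the 11 of JEJ.

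Cells were then grouped by their leading hormone, with GHRL and MLN joined, after their values were seen. DUOD had 10 cells led by SST, 7 by SCT, 6 by GHRL or MLN, 5 by CCK, 5 by GIP and 4 with no hormone at 1%. JEJ had 8 with no hormone at 1%, 4 led by SST, 2 by GIP, 2 by NTS and 1 each by GHRL or MLN, SCT and PYY. Cells with no leading hormone were 10.8% of DUOD (3.03 to 25.4%) and 42.1% of JEJ (20.3 to 66.5%), and these intervals overlap.

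**Figure D2:**
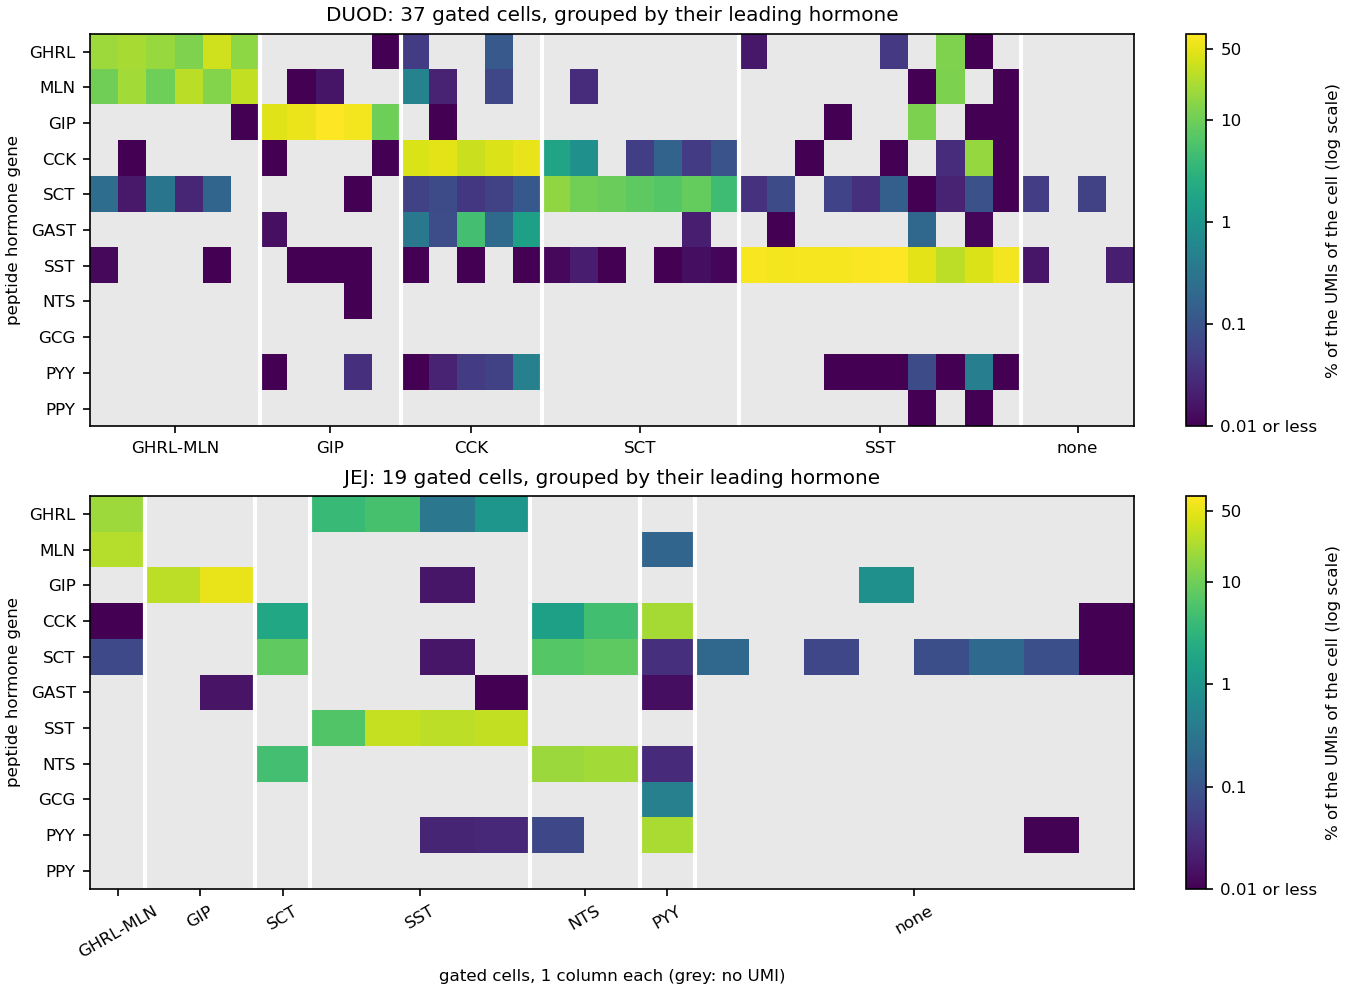
Peptide hormone UMIs as a percent of all UMIs of a cell (color, log scale; grey, no UMI) for 11 hormone genes (rows) in each gated cell (columns), grouped by leading hormone, in DUOD (top, 37 cells) and JEJ (bottom, 19 cells). GHRL and MLN light up in the same DUOD columns, and in JEJ the 4 SST columns also carry GHRL.

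Ghrelin and motilin shared cells in the duodenum. Of 8 GHRL-positive and 8 MLN-positive DUOD cells, 7 were positive for both (87.5% of each; 47.3 to 99.7%). The 6 cells led by this pair had 1581, 2439, 1987, 2442, 7047 and 3146 GHRL UMIs. The same cells had 867, 2302, 1103, 5297, 2586 and 6138 MLN UMIs, so either hormone could lead. The joint cell outside this group was led by SST. In JEJ only 1 of 5 GHRL-positive cells was positive for MLN, with 1896 and 2545 UMIs, and the other 4 had none.

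CCK-positive cells included SCT-positive cells in both regions, GAST-positive cells in DUOD and NTS-positive cells in JEJ, and these differences were not tested. In DUOD, 4 of 9 CCK-positive cells were positive for GAST, which is 4 of the 5 GAST-positive cells. The 5 cells led by CCK had 4501, 8575, 6696, 10017 and 14839 CCK UMIs and 37, 14, 974, 49 and 423 GAST UMIs. All 5 had GAST UMIs, and no immune cell of 405 did. Also, 4 of 9 CCK-positive cells were positive for SCT, 4 of the 12 SCT-positive cells. Of these, 3 were led by SCT, with 148, 82 and 23 CCK UMIs, and 1 was led by CCK, with 32 SCT UMIs. The other cells led by CCK had 6 to 13 SCT UMIs. In JEJ, 3 of 4 CCK-positive cells were positive for both SCT and NTS, and these were all 3 NTS-positive cells. They were led by NTS or SCT.

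The 3 triple cells of JEJ had 3812, 5829 and 1035 NTS UMIs. They had 1383, 2219 and 1663 SCT UMIs and 313, 1339 and 407 CCK UMIs, so all of the hormones were high in each cell. The fourth CCK cell of JEJ combined 4447 CCK UMIs with 4912 of PYY, 101 of GCG and 38 of MLN. It was the cell with the most hormones of the jejunum, at 21238 UMIs in all.

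Somatostatin cells often carried ghrelin in JEJ. In JEJ all 4 SST-positive cells were positive for GHRL (39.8 to 100% by interval), with 295, 3594, 3465 and 4551 SST UMIs and 187, 577, 40 and 151 GHRL UMIs. No other JEJ cell had an SST UMI. In DUOD 1 of 10 SST-positive cells was positive for GHRL (0.253 to 44.5%), an interval that overlaps that of JEJ, and it was 1 of 4 SST cells above 35000 UMIs. That cell had 13253 SST, 5793 GHRL and 5506 MLN UMIs among 45443. Another, with 38788 UMIs, had 18600 SST and 4750 GIP UMIs, and the one with 50703 had 22303 SST and 8802 CCK UMIs. Without the gated cells above 35000 UMIs, an alternative added after seeing the data, 0 of the DUOD SST cells were positive for GHRL. No doublet caller was run, and whether these deep barcodes hold more than 1 cell was not tested.

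**Figure D3:**
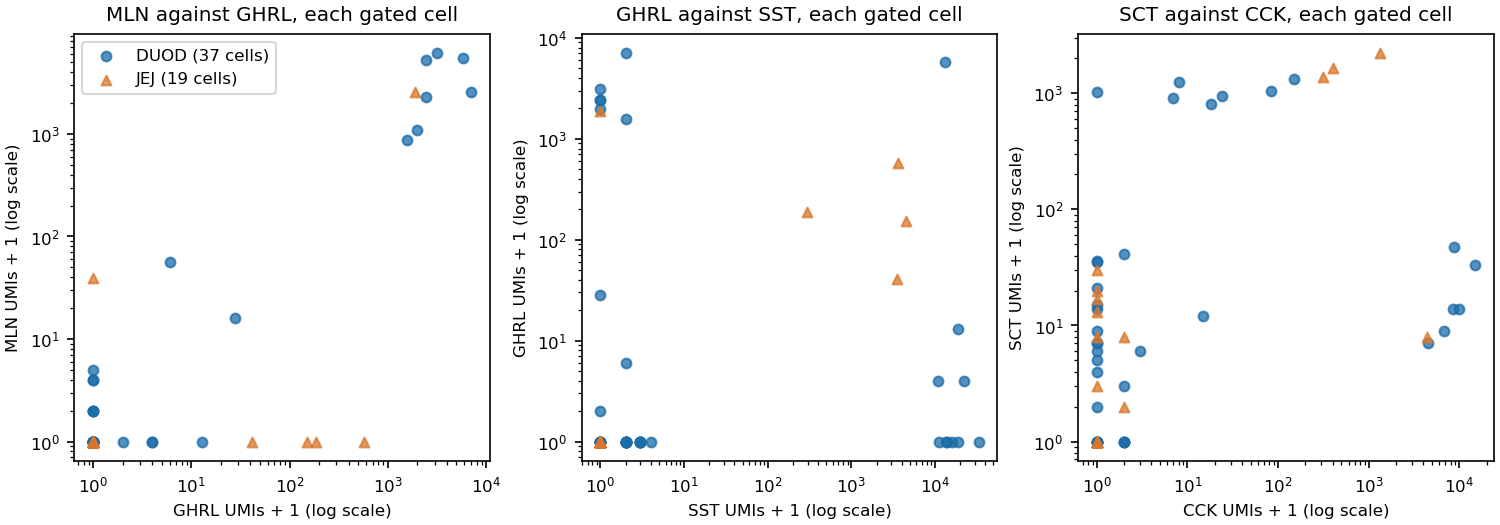
UMIs per gated cell, plus 1, on log axes, for MLN against GHRL (left), GHRL against SST (middle) and SCT against CCK (right), in DUOD (blue circles, 37 cells) and JEJ (orange triangles, 19 cells). Most DUOD cells high in GHRL are high in MLN, the 4 JEJ cells high in SST have 40 to 577 GHRL UMIs, and 3 JEJ cells are high in both SCT and CCK.

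The genes that went with each hormone were read as ratios of CPM, the UMIs summed over the positive cells of a library against those over its other gated cells. Genes were measured where both groups together had at least 20 UMIs, at least 3 cells of the higher group had some, and no cell held over 50% of the UMIs of that group. A gene at 0 in a group was set to 3 UMIs there and its ratio is then a bound. Cells of a library are not replicates, so these ratios describe the cells captured. Hormones take up so much of a cell that scaling matters. Leaving the hormones, CHGA, CHGB and the mitochondrial genes out of the totals moved all log2 ratios by -0.43 for SCT, 0.81 for SST, -0.59 for JEJ against DUOD and at most 0.07 in size for GHRL, GIP and CCK.

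GHRL-positive DUOD cells were set apart by CHIA, an acidic chitinase, and TTR, the retinol and thyroid hormone carrier transthyretin. CHIA had 2 to 96 UMIs (median 49) in the 8 positive cells and 0 to 3 (median 0) in the 29 others, so only the lowest positive cell reached the range of the others. The CPM ratio was 267 (113 to 828). TTR had 0 to 348 UMIs (median 122.5) against 0 to 14 (median 1), a ratio of 66.6 (52.1 to 86.3). ACSL1, which activates fatty acids, was 78.0-fold higher (29.4 to 293). GALR1, a galanin receptor, had 32 UMIs in 7 of 8 cells and 1 UMI in the others, a ratio of 122 (20.4 to 4961). COL9A1, a collagen chain, was seen in 5 of the 8 and in 0 of the others, and was at least 36.8-fold higher.

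Of 3044 genes measured for GHRL, 8.57% were at least 2-fold higher and 12.2% at least 2-fold lower, with a median log2 ratio of -0.04. Among granins, none of the 6 measured was higher and 3 were lower (median log2 ratio -1.34). CHGB had 0 to 153 UMIs (median 2) against 0 to 422 (median 69) and was 3.68-fold lower (3.19 to 4.27). PCSK1N, an inhibitor of PCSK1, was 14.3-fold lower, and SCG2, secretogranin II, was 61.7-fold lower. Among 14 transcription factors 2 were higher and 4 lower (median log2 ratio -0.17). ISL1, a LIM homeodomain factor, was 2.18-fold higher (1.46 to 3.22). PAX6 was 9.19-fold lower (1.55 to 373), and DDC, which makes serotonin and dopamine from their precursors, 17.6-fold lower (3.05 to 705).

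Part of this pattern was found in JEJ, whose cells did not enter the ranking. The GHRL and MLN cell of JEJ had 217 TTR and 10 CHIA UMIs. Over the 5 GHRL-positive JEJ cells TTR was 182-fold higher, carried by that cell, since the median of the 5 was 1 UMI. CHIA had 26 UMIs in 3 of the 5 cells and 0 in the 14 others, at least 36-fold higher. Of 271 genes at least 2-fold higher in DUOD on totals without hormones, 63 were measured in JEJ and 21 of them (33.3%) were at least 2-fold higher there too. Over all 1329 genes measured in both libraries the share was 9.10%, 121 genes, and the 21 were 17.4% of these. The 4 SST cells made up most of the GHRL-positive cells in JEJ, and there the leading genes were SST, HHEX, ISL1 and the chemokine CCL25 (27.7-fold; 11.7 to 79.9).

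Of the 6 GIP-positive DUOD cells, 5 carried FABP4, a fatty acid carrier best known from fat cells. All 6 carried RGS5, a regulator of G protein signals. The 5 cells led by GIP had 6369, 8607, 12889, 14561 and 4843 GIP UMIs and 6, 44, 27, 40 and 30 FABP4 UMIs. The GIP-positive cell led by SST had 4750 GIP, 0 FABP4 and 2 RGS5 UMIs. No FABP4 or RGS5 UMI was seen in the 31 GIP-negative cells. Summed over the 6 positive cells, FABP4 was at least 182-fold and RGS5 at least 74.5-fold higher. In JEJ the 2 cells led by GIP had 438 and 6358 GIP UMIs and 1 and 46 FABP4 UMIs, and too few cells were positive for a ratio. SLC5A1, the sodium-glucose cotransporter that couples glucose to incretin release, had 19 UMIs in 6 of 6 cells against 2 UMIs in 2 of 31, a ratio of 35.4 (8.53 to 313).

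Summed over the 6 GIP-positive cells, much of the other endocrine program was low, but 2 deep cells weigh on these sums. They held 49468 and 38788 of the 160048 UMIs of the group. Of 2781 genes measured, 2.23% were at least 2-fold higher and 24.9% at least 2-fold lower, with a median log2 ratio of -0.50. Among 12 transcription factors 0 were higher and 7 lower (median log2 ratio -1.59). NEUROD1 was 3.38-fold lower (1.96 to 6.30), ISL1 4.26-fold (2.00 to 10.8) and FOXA1, a forkhead factor, 7.92-fold (2.10 to 67.0). The 2 deep cells had 0 and 1 NEUROD1 UMIs and 1 and 2 ISL1 UMIs. The others had 1, 11, 1 and 0 NEUROD1 UMIs and 1, 1, 0 and 2 ISL1 UMIs. How far the deep cells set these ratios was not tested. Of 7 processing enzymes 1 was higher and 4 lower (median -1.02). PAM, which amidates peptides, was 3.35-fold higher, and PCSK1, the convertase that cuts the GIP precursor, was 3.24-fold lower (1.84 to 6.23).

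The apolipoprotein gene APOA1 had 76 to 462 UMIs (median 167.5) in the GIP-positive cells and 2 to 180 (median 24) in the others, 3.57-fold higher (3.3 to 3.87). Of 5 enterocyte genes measured 3 were higher and 1 lower. The deepest of the cells led by GIP, with 49468 UMIs, held 1068 of the 1125 FABP1 UMIs of all gated DUOD cells. FABP1 is a fatty acid carrier of enterocytes. With cells over 1% in 6 enterocyte genes left out, 28 genes were at least 2-fold higher, against 62 with all cells, and the log2 ratio of APOA1 was 0.94, against 1.84. The log2 ratio of GIP in JEJ against DUOD was then -0.97, against -1.41.

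Of the 9 CCK-positive DUOD cells, 6 carried PAPPA2, a protease that cuts insulin-like growth factor binding proteins. The 5 cells led by CCK had 4, 11, 23, 21 and 25 PAPPA2 UMIs, and the deep SST cell with CCK had 28. The 3 CCK-positive cells led by SCT had 0. Only 1 of the 28 CCK-negative cells had any, with 6 UMIs, and the CPM ratio was 59.4 (26.4 to 165). GRIA2, a glutamate receptor subunit, was 15.9-fold higher (5.98 to 53.2). NNAT, neuronatin, was also 15.9-fold higher (8.68 to 31.4), but it had 21, 8 and 25 UMIs in the 3 CCK-positive cells led by SCT and 1 to 4 in the 5 led by CCK. Of 8 processing enzymes 2 were higher and 2, CTSL and PCSK2, lower. TPST2, which sulfates tyrosines as cholecystokinin requires, was 9.54-fold higher (3.91 to 26.6). CPE had 6 to 75 UMIs (median 57) against 3 to 42 (median 12), a ratio of 3.3 (2.85 to 3.82).

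Of 3124 genes measured for CCK, 5.06% were at least 2-fold higher and 10% at least 2-fold lower, with a median log2 ratio of 0.02. Among 14 transcription factors 4 were higher and 5 lower (median -0.11). The higher ones were RUNX1T1, a corepressor (7.42-fold; 2.68 to 23.6), ETV1 (2.99-fold; 2.36 to 3.79), PAX6 (2.54-fold; 1.23 to 5.17) and NEUROD1 (2.17-fold; 1.6 to 2.92). The lower ones included ISL1 (3.06-fold) and RFX6 (5.35-fold; 1.37 to 45.9). HHEX had 0 UMIs in the 9 cells and 28 in the others. CHGA, which chose the cells, was 5.18-fold lower, with 3 to 29 UMIs (median 7) against 3 to 344 (median 27.5). MAOA, which breaks down amines, had 1 UMI against 62, 19.5-fold lower (3.37 to 782).

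SCT-positive DUOD cells carried C1QL1, a secreted complement-like protein, TF, the iron carrier transferrin, and RBP4, the retinol carrier of blood. The 7 cells led by SCT had 811 to 1327 SCT UMIs (median 1018). Over the 12 SCT-positive cells C1QL1 had 0 to 34 UMIs (median 14.5), and in the 25 others 1 UMI in 1 cell, a ratio of 496 (87.7 to 19708). TF had 0 to 49 UMIs (median 1) against 0 to 4, a ratio of 83.0 (41.4 to 195), so a subset of the cells carried it. RBP4 had 0 to 158 (median 15) against 0 to 9 (median 0), a ratio of 40.9 (28.9 to 59.4). HSD17B2, a steroid dehydrogenase, was 15.1-fold higher (10.5 to 22.3).

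TTR was 7.65-fold higher in the SCT-positive cells, but its median there was 1.5 UMIs. With positive defined at 1% of UMIs, which removes the GHRL cells with 20 to 35 SCT UMIs, its log2 ratio turned from 2.94 to -3.24. In JEJ the SCT-positive cells had 4 TTR UMIs against 220 in the others, but 217 of the 220 were in the GHRL and MLN cell.

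Of 3115 genes measured for SCT, 14.9% were at least 2-fold higher and 4.72% at least 2-fold lower (median log2 ratio 0.41). On totals without hormones, 5.32% were higher and 10.1% lower (median -0.03). Of 5 granins 3 were higher and 0 lower (median 1.54). Without hormones 3 were higher and 1, SCG5, lower. CHGB had 0 to 422 UMIs (median 117.5) against 0 to 261 (median 15), a ratio of 3.4 (3.16 to 3.65). SCG2 was 6.20-fold higher (5.11 to 7.55) and PCSK1N 2.91-fold. Of 7 processing enzymes 2 were higher, among them PCSK1 (3.03-fold; 2.22 to 4.14), and 0 lower. Without hormones FURIN, a general proprotein convertase, was lower.

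Several of these genes were high in 3 of the 5 SCT-positive cells of JEJ, the 3 that were also positive for CCK and NTS. C1QL1 had 17, 47 and 10 UMIs and TF 35, 129 and 38 in those cells. The other 2, with 19 and 29 SCT UMIs, had 0 of both, so going with SCT and going with CCK or NTS cannot be told apart there. Over 5 SCT-positive JEJ cells against 14, C1QL1 had 74 UMIs against 0, at least 45.9-fold higher, and TF had 202 against 2, 188-fold. RBP4 had 268 UMIs against 0, with 244 of them in 1 cell. HSD17B2 was 58.6-fold, NNAT 15.5-fold and CHGB 10.0-fold higher. CHGB had 28 to 520 UMIs (median 228) in the 5 cells and 0 to 92 (median 5.5) in the others. Of 164 genes higher in DUOD on totals without hormones, 43 were measured in JEJ and 19 (44.2%) were at least 2-fold higher, against 6.50% (91) of all 1401 genes measured in both. The 19 were 20.9% of those 91.

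SST-positive DUOD cells were marked by HHEX, a homeobox factor known from somatostatin cells of the pancreas, and also carried PCSK2. The 10 cells had 10794 to 33151 SST UMIs (median 14867). HHEX had 0 to 8 UMIs (median 2.5), with UMIs in 8 of the 10 cells and in 0 of the 27 others, and was at least 12.7-fold higher. PCSK2 had 2 to 12 UMIs (median 9) against 0 to 6 (median 0), a ratio of 4.02 (2.57 to 6.47), with UMIs in 10 of 10 and 9 of 27 cells. It was not particular to SST cells, since the 6 cells led by GHRL or MLN had 3, 2, 5, 6, 4 and 2 PCSK2 UMIs. MEST, an imprinted gene, was 17.2-fold higher (5.45 to 87.0). ISL1 had 2 to 14 UMIs (median 6.5) against 0 to 11 (median 0), a ratio of 2.45 (1.66 to 3.67).

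Of 3145 genes measured for SST, 1.05% were at least 2-fold higher and 33.5% at least 2-fold lower (median log2 ratio -0.74). On totals without hormones the shares were 6.97 and 8.1% (median 0.06). Of 14 transcription factors 2 were higher and 4 lower (median 0.02), and without hormones 6 were higher and 3 lower (median 0.98). HHEX and ISL1 were higher, and NEUROD1 (7.05-fold) and RFX6 (12.5-fold; 3.21 to 108) lower, on both scales. Of 6 granins 1, SCG5, a helper of PCSK2, was higher (2.21-fold; 1.83 to 2.66) and 3 were lower. Without hormones 3 were higher and 1, CHGA, lower. CHGA, which chose the cells, had 3 to 55 UMIs (median 5.5) against 3 to 344 (median 28), so SST cells of DUOD lay close to the gate.

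Where a cell counts as positive at 1 UMI, the lower ratios of SCT, RBP4, C1QL1 and FABP4 in SST cells turned positive. By that rule 70.3% of the DUOD cells are SST-positive, with at most 3 UMIs in those outside the 10 cells above. RBP4 had 4 UMIs in the SST-positive cells and 481 in the others, 88.7-fold lower (34.4 to 327) under the main rule.

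**Figure D4:**
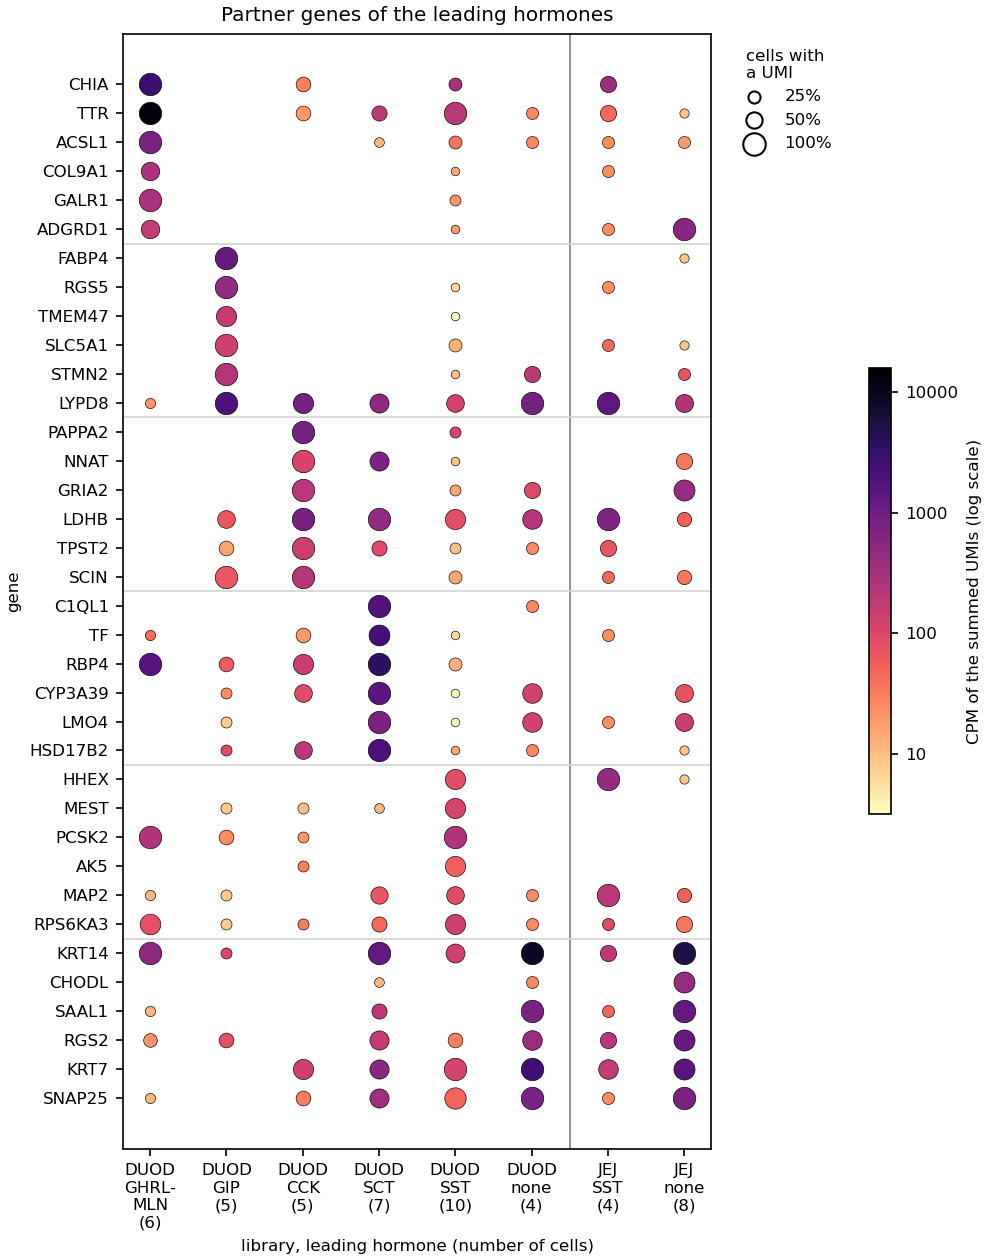
Level of partner genes (rows) in cells grouped by library and leading hormone (columns, number of cells in brackets), as CPM of the summed UMIs (color, log scale) and share of cells with a UMI (dot area). CHIA is darkest in the GHRL and MLN cells, FABP4 in the GIP cells, PAPPA2 in the CCK cells and C1QL1 in the SCT cells, and KRT14 is darkest in the cells with no leading hormone of both libraries.

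The SST cells captured in the regions differed in granule genes, while the intervals of their GHRL-positive shares overlapped. The 10 cells led by SST in DUOD had 47 to 261 CHGB UMIs (median 155), while the 4 of JEJ had 0, 1, 13 and 3. In CPM the groups did not overlap, at 2505 to 7082 against 0 to 1100, and CHGB was 11.2-fold lower in JEJ (6.99 to 19.3). PCSK2 had 2 to 12 UMIs in each DUOD cell and 0 in each of the 4 JEJ cells, at least 3.5-fold lower. SCG5 was 5.07-fold lower (2.54 to 11.8), at 693 to 1316 CPM in DUOD and 0 to 343 in JEJ. CHGA, which chose the cells, went the other way, with 14, 56, 113 and 44 UMIs in JEJ, 15.6-fold higher (12.4 to 19.7). The JEJ cells had 4637 to 14591 UMIs and the DUOD cells 16718 to 54947.

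HHEX was present in both, with 3, 7, 4 and 5 UMIs in the JEJ cells and 0 to 8 in DUOD, and by CPM it was 5.17-fold higher in JEJ (2.73 to 9.60). ISL1 was 3.21-fold higher (2.05 to 4.91), CCL25 33.9-fold (16.2 to 79.4) and LGALS2, a galectin, 70.2-fold (28.0 to 226). Of 913 genes measured, 31.1% were at least 2-fold higher and 5.59% lower in JEJ. On totals without hormones the shares were 6.72 and 18.8% of 1072. The log2 ratios shift by -0.88 between these scales, and ISL1 was then 1.74-fold higher. Of 6 granins 1 was higher and 3 lower on both scales. Of 7 transcription factors 5 were higher and 0 lower, and without hormones 2, HHEX and FOXA1, were higher and 1 lower.

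PCSK2 was at 0 in all gated cells of the ileal libraries, 48 in IPP and 28 in NoPP, SST cells included. Only 2 of these IPP cells and 9 of these NoPP cells were led by SST. Of the 48 IPP cells, 20 had UMIs of NEUROD1 and 20 of PCSK1, while 35 had UMIs of the enterocyte gene FABP2. In the SST cells, CHGB was at 0 or 1 UMI in the NoPP cells and at 5 in each IPP cell. GHRL was positive in 5 of the 9 SST-positive NoPP cells and had 45 and 13 UMIs in the IPP cells. SCG5 had 7 and 12 UMIs in the IPP cells led by SST and 0 to 13 in those of NoPP. A DUOD cell outside the gate, with 1 PTPRC UMI, had 3949 SST, 420 GHRL, 3 CHGB, 7 HHEX and 0 PCSK2 UMIs. It was chosen after its values were seen and had 9 SCG5 UMIs among 13068. The other DUOD SST cells outside the gate had 87 to 175 CHGB and 2 to 6 PCSK2 UMIs.

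**Figure D5:**
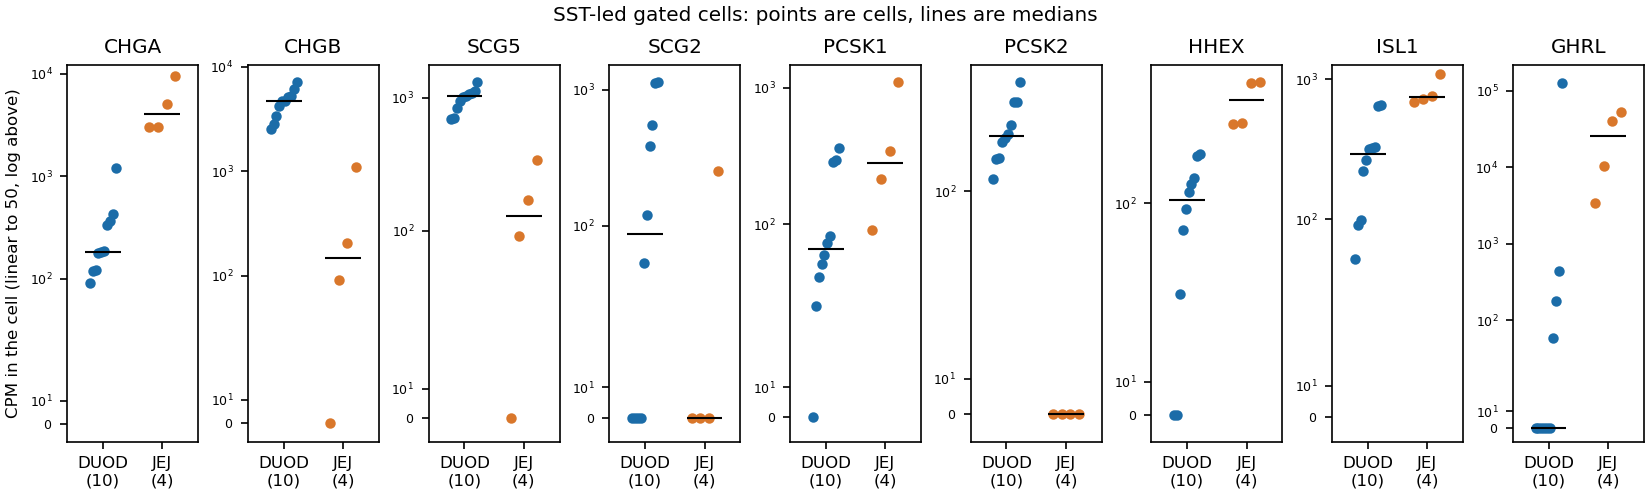
CPM of 9 genes in each SST-led gated cell (points; y axis linear to 50 CPM and log above) in DUOD (blue, 10 cells) and JEJ (orange, 4 cells), with the median as a line. CHGB, SCG5 and PCSK2 are lower in each JEJ cell than in each DUOD cell, and CHGA is higher in each JEJ cell.

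Cells with no leading hormone had many CHGA UMIs and shared KRT14, SAAL1 and SNAP25 in both regions. CHGA, which chose the cells, had 65, 119, 293 and 344 UMIs in the 4 DUOD cells and 78 to 489 (median 170.5) in the 8 JEJ cells. KRT14, a keratin best known from basal cells of stratified epithelia, had 19, 69, 102 and 166 UMIs in the DUOD cells. In JEJ it had 27 to 200 (median 66.5) against 0 to 5 (median 0) in the 11 led cells, a ratio of 52.6 (32.1 to 92.7), and in DUOD the ratio was 29.7 (25.0 to 35.3). The groups overlapped in DUOD, where a cell led by SCT had 61 KRT14 UMIs among 17814. The lowest DUOD cell with no leading hormone had 19 among 5914. SAAL1 was 25.2-fold higher in JEJ (12.4 to 59.4) and 32.0-fold in DUOD (17.4 to 60.6). SNAP25, a fusion protein of secretory vesicles, was 15.4-fold and 11.3-fold higher. CHODL, a lectin-like membrane protein, had UMIs in 7 of 8 JEJ cells and 0 of the 11 others, at least 23.2-fold higher, but 1 UMI in the DUOD cells. Of 8 stress and dissociation genes measured 5 were higher and 0 lower in these cells of JEJ (3 and 0 without hormones), and in DUOD 3 of 5 were higher (0 without hormones). Of the epithelial markers 3 of 6 were higher in JEJ and 4 of 5 in DUOD (2 and 3 without hormones). Their part in these results was not tested.

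Some genes known from serotonin cells were found in these cells, and others were hardly seen in any gated cell. Of 6 serotonin and amine genes measured in JEJ 1, DDC, was higher and 2 were lower, and of 9 transcription factors 1, LMX1A, was higher and 4 lower. LMX1A, a factor of the serotonin cell program, was 9.22-fold higher in JEJ (3.20 to 36.3), with UMIs in 7 of 8 cells, and in DUOD had 10 UMIs in 3 of 4 cells against 3 UMIs in 33. DDC was 3.49-fold higher in JEJ (2.14 to 5.86) and 6.0-fold in DUOD (3.25 to 10.6). It also had UMIs in 25.1% of the kept DUOD cells outside the gate and in 17.5% of those of JEJ. SLC18A1, which loads serotonin into granules, had 4 UMIs in 4 of 19 JEJ cells and 0 in DUOD, and TPH1 is not analysed here. FEV and TAC1 are also known from serotonin cells. Over all gated cells FEV had 1 UMI in each region, and TAC1 had 1 UMI in JEJ and 0 in DUOD. PENK, which encodes enkephalins, had 666 and 277 UMIs in 2 of the 8 JEJ cells and 0 to 17 in the other 6. In DUOD it had 0, 2, 5 and 18.

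Of 1540 genes measured for the JEJ cells with no leading hormone, 29.7% were at least 2-fold higher and 5.19% lower. On totals without hormones the shares were 10.7 and 14.1% of 1536 genes, a shift of -0.66 in log2. ISL1 and ETV1 had 0 UMIs in these cells, against 35 and 29 in the led cells. CHGB was 2.80-fold lower (2.47 to 3.18) in JEJ and 2.15-fold lower in DUOD. Of 163 genes higher in JEJ on totals without hormones, 111 were measured in DUOD and 62 (55.9%) were higher there. Over all 1261 genes measured in both, 12.2% (154) were, of which the 62 were 40.3%.

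Over all gated cells, 6 hormones passed the limits for a measured gene, and 5 of these were at least 2-fold lower in JEJ than in DUOD by CPM (median log2 ratio -1.57). The sixth, SCT, was at 20068 CPM in JEJ and 10111 in DUOD. NTS was at 39957 CPM in JEJ and 1.32 in DUOD, PYY at 18460 and 574, and GCG at 378 and 0, but 1 JEJ cell held over 50% of the UMIs of each, so they were not counted. Among the lower hormones 1 JEJ cell held 98.5% of the MLN and 92.1% of the GIP UMIs of that library. SST was 5.09-fold lower (5.00 to 5.19), MLN 3.27-fold, GHRL 3.04-fold, CCK 2.92-fold and GIP 2.66-fold. With cells that had lymphocyte UMIs left out, the log2 ratio of GIP was -0.49, against -1.41 with all cells. PCSK2 was 37.8-fold lower (6.65 to 1509), with UMIs in 19 of 37 and 1 of 19 cells. PCSK1 was 4.17-fold higher (3.42 to 5.10), at 0 to 37 UMIs (median 8) against 0 to 25 (median 2).

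Of 4374 genes measured in this comparison, 16.2% were at least 2-fold higher and 4.55% lower in JEJ (median log2 ratio 0.43). On totals without hormones 4.34% were higher and 12.2% lower of 4378 (median -0.16). Of 16 transcription factors 6 were higher and 1 lower, and without hormones 2, LMX1A and FOXA1, were higher and 2 lower. NEUROD1 was 2.59-fold higher (2.10 to 3.20), but 1.72-fold without hormones. TM4SF1 had 0 UMIs in JEJ and 270 in 18 DUOD cells, and PAPPA2 had 0 and 118. CHODL (69.3-fold) and the heat shock gene HSP70.2 (14.6-fold; 11 to 19.9) led the higher genes. The list of stress and dissociation genes moved with the region: 7 of 8 measured were higher in JEJ (3 without hormones), at 8222 CPM summed against 3358, and its part in these results was not tested. Fewer cells of a hormone type and less RNA per cell cannot be told apart in values summed over all gated cells.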

How the data were processed

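The deposited matrices hold raw UMI counts per gene and barcode, made with Cell Ranger 4 per the file headers and version 4.0.6 per the submitters' processing notes. For the genome build, no name is given in the sources used here. Of 25880 genes, 17733 had a symbol in the files and 977 took 1 from a gene name table.

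Barcodes were filtered and gated as given above, in DUOD (91813234 UMIs listed in all) and JEJ (64364750), with IPP and NoPP gated alike for comparison. The members and gene lists were chosen with earlier results of these data known. No doublet caller was run, and alternatives left out gated cells with lymphocyte, enterocyte or very many UMIs. Another alternative dropped a barcode where a different library held 10 times its UMIs or more, and removed no gated cell of DUOD or JEJ.

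UMIs were summed over cells and scaled to CPM. Ratios have exact conditional intervals of 2 Poisson counts, and a count of 0 was set to 3 in ratios. Named genes were the 12 with the largest ratio above 2-fold and the 4 below it for each hormone, ranked by the interval bound nearest to 1. For JEJ against DUOD they were the 10 largest each way. Members of the lists of hormones, amine genes, granins, processing enzymes and transcription factors past 2-fold were added. FABP1, PENK, SLC18A1 and the marker genes were named as cell type checks or chosen after their values were seen. GAST and MLN groups in DUOD were also computed, and the GAST cells were mostly the CCK cells.

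The ratios and intervals were tested on simulated Poisson counts with known changes of 2.5-fold and 4-fold. Intervals held the true ratio for 96.3 to 96.9% of genes. Unchanged genes past 2-fold were 8.07 and 12.9% with the group sizes of GHRL, and 4.31 and 6.2% with those of SST. Simulated cells of a group shared 1 profile, so differences between real cells were not covered. Hormones, CHGA, CHGB and mitochondrial genes were left out of that profile while cell totals were kept. Other genes thus had more counts than in the data, and 5341 to 5502 were measured, against 3044 for GHRL and 3145 for SST. The rates therefore do not carry over to the real counts. Counts and intervals followed the same Poisson model, so the coverage checks the computation only. Alternatives changed the cell filters, the gate, the rule for positive cells, the scaling, the weight of deep cells and the UMI minimum. Python 3.11.15, numpy 2.4.6, scipy 1.17.1, pandas 2.3.3 and matplotlib 3.10.9 were used.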

Additional observations from a re-analysis of the deposited data

Results flagged for a closer look

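Hormone cells were also found outside the gate. In DUOD, 9 kept cells outside it had a peptide hormone at 1% or more of their UMIs, 3 without PTPRC and 6 with it. They included 5 SST cells, with 3949, 5745, 5787, 7300 and 9509 SST UMIs, and 4 CCK cells, with 7280, 8038, 9915 and 13598 CCK UMIs. The CCK cells with 8038 and 9915 CCK UMIs had 230 and 346 PPY UMIs and 493 and 243 PYY UMIs. PPY was positive in no gated cell, and each of these cells had 2 CHGA UMIs. In JEJ, 2 kept cells outside the gate had a hormone at 1% or more. The cell with 8267 NTS, 2357 CCK and 2005 PYY UMIs had 0 CHGA UMIs, and the other had 486 GIP UMIs. A further 9 DUOD and 4 JEJ barcodes met the CHGA and PTPRC limits but exceeded the mitochondrial limit.

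For some genes the ratio of hormone-positive to other gated cells pointed in opposite directions in the regions, and these differences were not tested. The genes given here are examples and not a full count. HHEX was at least 2-fold lower for GHRL in DUOD but among the leading higher genes for GHRL in JEJ. ADGRD1, an adhesion receptor, had a log2 ratio of 4.74 for GHRL in DUOD and of -4.14 in JEJ, where it had 63 UMIs in the 8 cells with no leading hormone and 11 in the others. SST had a log2 ratio of -1.65 for GHRL in DUOD and of at least 14.01 in JEJ, where the cells without GHRL had 0 SST UMIs. TTR had a log2 ratio of 2.94 for SCT in DUOD and of -4.88 in JEJ, where a single SCT-negative cell held 217 TTR UMIs and carried the ratio. RBP2, a retinol carrier of enterocytes, had a log2 ratio of -3.06 for SCT in DUOD and of 3.4 in JEJ.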

How the results depend on the processing

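No paired analysis was possible because each region is 1 library and cells carry no title. Of the cell and gene counts recomputed under an alternative, 332 stayed within 1.5 times and 71 moved. Of the shares 268 stayed within their interval and 12 moved, and of 2144 ratios of named genes 2116 kept their direction and side of 2-fold, 23 no longer passed 2-fold and 5 reversed. Limits of 500 UMIs, of 40% mitochondrial UMIs and of 10 UMIs for a positive cell moved no share or count past these bounds. The cause of each change was not tested beyond what the setting itself does. Counts below are of genes at least 2-fold higher or lower.

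With CHGA of at least 1 UMI the lower genes were 675 for GHRL, 638 for CCK, 452 for SCT and 134 for JEJ cells with no leading hormone, and the higher genes for SST 52. With CHGA of at least 10 the higher genes were 140 for GHRL, 37 for GIP, 257 for SCT, 10 for SST and 120 for the SST-led comparison (lower 10), and list members past 2-fold for CCK 14. The shares then were 12.0% for SST in DUOD and 0% for MLN in JEJ, 100% of GHRL cells with MLN and 100% of CCK cells with NTS. With no CHGA gate but a hormone at 1%, an alternative added after seeing the data, JEJ held 12 cells. With up to 1 PTPRC UMI the SCT log2 ratio of JEJ to DUOD was 1.03 (0.99 before), and at a mitochondrial limit of 10% it was 1.19. That limit gave 213 lower genes for GHRL, 676 for SST and 53 for cells with no leading hormone, and 187 higher for the SST-led comparison.

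Without cells above 35000 UMIs, also added after seeing the data, the lower genes were 208 for CCK, 97 for SCT and 16 for the SST-led comparison. The higher genes were 16 for SST and 138 for the SST-led comparison, and GHRL was positive in 0% of DUOD SST cells, against 10.0%. Without cells with lymphocyte UMIs the GIP log2 ratio of JEJ to DUOD was -0.49, the lower genes of cells with no leading hormone 44 and the higher of the SST-led comparison 187. Without enterocyte-rich cells the GIP ratio was -0.97 and the higher genes for GIP 28. With means of single-cell CPM the GIP ratio was -0.69, the SCT ratio -0.53 and the lower genes for GIP 1054.

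With each gene's top cell removed the higher genes were 117 for GHRL, 24 for GIP, 58 for CCK, 238 for SCT, 20 for SST, 439 for JEJ against DUOD and 106 for the SST-led comparison. The lower genes were 559 for GHRL, 1285 for GIP, 47 for cells with no leading hormone and 77 for the SST-led comparison. With no minimum of UMIs the higher and lower genes were 1415 and 845 for GHRL, 1019 and 1331 for GIP, 1120 and 866 for CCK, 1655 and 573 for SCT, and 372 and 2679 for SST. They were 2031 and 599 for JEJ against DUOD and 1489 and 654 for cells with no leading hormone, and 1807 were higher in the SST-led comparison. Scaled without hormones they were 166 and 315 for SCT, 217 and 252 for SST, 190 and 534 for JEJ against DUOD, 164 and 216 for cells with no leading hormone and 72 and 202 for the SST-led comparison.

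With positive cells at 1 UMI the DUOD shares were 40.5% for MLN, 51.4% for CCK, 78.4% for SCT and 70.3% for SST. SCT was at 63.2% in JEJ, and 84.2% of the DUOD CCK cells had SCT. Higher genes were 121 for GHRL and 121 for SST, lower genes 130 for CCK and 325 for SST, and list members 13 for CCK and 11 for SST. The SST log2 ratios reversed for RBP4 (0.49), SCT (1.23), C1QL1 (1.53) and FABP4 (0.11). At 1% of UMIs, 100% of GHRL cells had MLN, 474 genes were lower for CCK, 1049 higher for SCT, and 23 list members passed for SCT, where TTR reversed to -3.24.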
